A study of Mus musculus with 9 samples.

Results

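The resting transcriptome of the untreated cells was described from the 3 untreated libraries of a series of 9. Per the labels, the cells were of the BALB/c line RAW264.7, cell type macrophage, grown in DMEM with fetal bovine serum. RAW264.7 is known as a transformed macrophage-like line that was derived from a male mouse. The untreated cells received no agent, and their labels give no time. The other 6 libraries, treated with tumour necrosis factor alpha alone or together with Wang Bi granules, a Chinese herbal preparation, were not used. The study set out to find genes that respond to the induction and to the drug. Libraries were chosen by their label, and genes were ranked by their mean FPKM (fragments per kilobase of gene model per M (mega) fragments) over the 3 libraries. All levels below are FPKM means with the SD over the 3 libraries (n = 3), and where 3 values follow each other they are those of untreated libraries 1, 2 and 3. With 1 group there is no comparison to test, so counts, medians and values are descriptions. The labels do not say whether the 3 libraries came from separate cultures, so the SD may measure technical spread only.

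Macrophages are phagocytes of the myeloid lineage. They are known to depend on the transcription factor PU.1 (Spi1) and the receptor CSF1R, and to carry the common leukocyte antigen CD45 (Ptprc), complement receptor chains such as CD11b (Itgam), Fc receptors, lysozyme and, in mice, F4/80 (Adgre1). Fibroblasts and related mesenchymal cells secrete fibrillar collagens, fibronectin and the enzymes that process them, and respond to platelet-derived growth factor. The neural crest is an embryonic population that leaves the dorsal neural tube and gives rise to Schwann cells, melanocytes, peripheral neurons and part of the connective tissue of the head. SOX10 and FOXD3 are transcription factors of the crest and of early Schwann cells, ERBB3 is the receptor through which neuregulin acts on Schwann cell precursors, and myelin proteins mark mature Schwann cells.

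The table held 56289 gene identifiers, of which 12669 (22.5%) had a mean of at least 1 FPKM, the threshold used here for a detected gene. Of 21897 protein-coding genes 11076 (50.6%) reached 1 FPKM, 29.1% reached 10 FPKM, 2.23% reached 100 FPKM and 27.5% were listed at 0 in all 3 libraries. The 3 libraries had 12611 to 12701 genes at 1 FPKM and summed to 427781 to 435660 FPKM. Mitochondrially encoded genes took 7.32 ± 0.24% of the sum and ribosomal protein genes 15.4 ± 0.24%. None of 72 genes for the proteasome, RNA polymerase II, the chaperonin TCP1 and the cytosolic tRNA synthetases was listed at 0, and the lowest of them stood at 8.81 FPKM. Depth is not in the table. It was inferred from genes with a single exon, by searching for the step that put most of their values times length on whole steps. At the chosen step 34.9 to 37.9% of values lay within 0.02 of a whole step, and the rest did not. An even spread at a fixed step would give 4%, which is not the expectation for a step chosen in this way. Taking a step as 1 fragment gives 22.6 ± 3.05 M fragments per library.

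Genes that define macrophages were at or near 0, and genes of matrix-secreting mesenchymal cells were among the most abundant. Of 26 macrophage markers, 3 reached 1 FPKM, against 50.6% of all protein-coding genes, and 13 were listed at 0 in all 3 libraries. Those at 0 were Ptprc, Spi1, Itgam, Adgre1, Tyrobp (an adaptor of activating receptors), Fcgr3, Ctss, C1qa, C1qb, C1qc, Mrc1, Msr1 and Marco. Csf1r (ENSMUSG00000024621) had 0.0327, 0.0725 and 0.0273 FPKM, and Lyz2, the macrophage lysozyme, had 0.642, 0.493 and 0.308 FPKM. The 3 markers above the threshold were Cd14, the lipopolysaccharide co-receptor, at 4.59 ± 0.449 FPKM, Mertk, a receptor for apoptotic cells, at 2.45 ± 0.345 FPKM, and Cd68, a lysosomal membrane protein, at 1.26 ± 0.278 FPKM. Cd68 was at 1.45, 0.939 and 1.39 FPKM, so 1 of its libraries lay below the threshold. The whole macrophage list summed to 9.14 to 9.69 FPKM per library and had a median of 0.00318 FPKM. The data thus went against the labelled cell type in its defining markers, and the cells are called below by their treatment label and by their leading genes. In bulk RNA, fewer cells of a type and less RNA per cell cannot be told apart, nor can it be told which of these genes were made by the same cells.

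All 7 matrix and mesenchymal genes that were given as markers of these cells were far above the threshold. Col1a1 (ENSMUSG00000001506), the main chain of type I collagen, stood at 815, 901 and 791 FPKM. Col3a1, the chain of type III collagen, stood at 633, 668 and 639.6 FPKM. Sparc, a collagen-binding glycoprotein, reached 1055, 997 and 990.0 FPKM. Sparc was above Col1a1 and Col1a1 above Col3a1 in each library. Fn1 (fibronectin) was at 733 ± 55.8 FPKM, Lgals1 (galectin-1) at 1046 ± 27.1 FPKM, Postn (periostin) at 242 ± 9.14 FPKM and Pdgfrb, the receptor for platelet-derived growth factor B, at 70.04 ± 1.31 FPKM. These 7 genes were chosen with results of these libraries known and are no independent evidence.

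The wider fibroblast list was split. Of its 26 members 17 (65.4%) reached 1 FPKM, against 50.6% of all protein-coding genes. The median was 7.18 FPKM and the list summed to 4099 to 4402 FPKM per library. S100a4, often used as a fibroblast marker, was the highest at 1107 ± 27.4 FPKM. The genes that mark many adult tissue fibroblasts were low: Dcn (decorin) was at 2.94 ± 0.243 FPKM, Pdgfra at 5.54 ± 0.439 FPKM and Pdpn (podoplanin) at 8.83 ± 0.275 FPKM. Lum (lumican) and Dpp4 were listed at 0 in every library. Thy1 had a mean of 0.00890 FPKM, Cd248 of 0.0348, Fap of 0.0670 and Cdh11 of 0.753. Pdgfrb exceeded Pdgfra by a factor of 12.7 ± 0.997 in FPKM. Exons of Csf1r, Col3a1, Fn1, S100a4 and Pdgfra overlap those of another gene in GENCODE M21, and no source states whether counting used strand, so the values of these genes are uncertain to that extent.

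**Figure D1:**
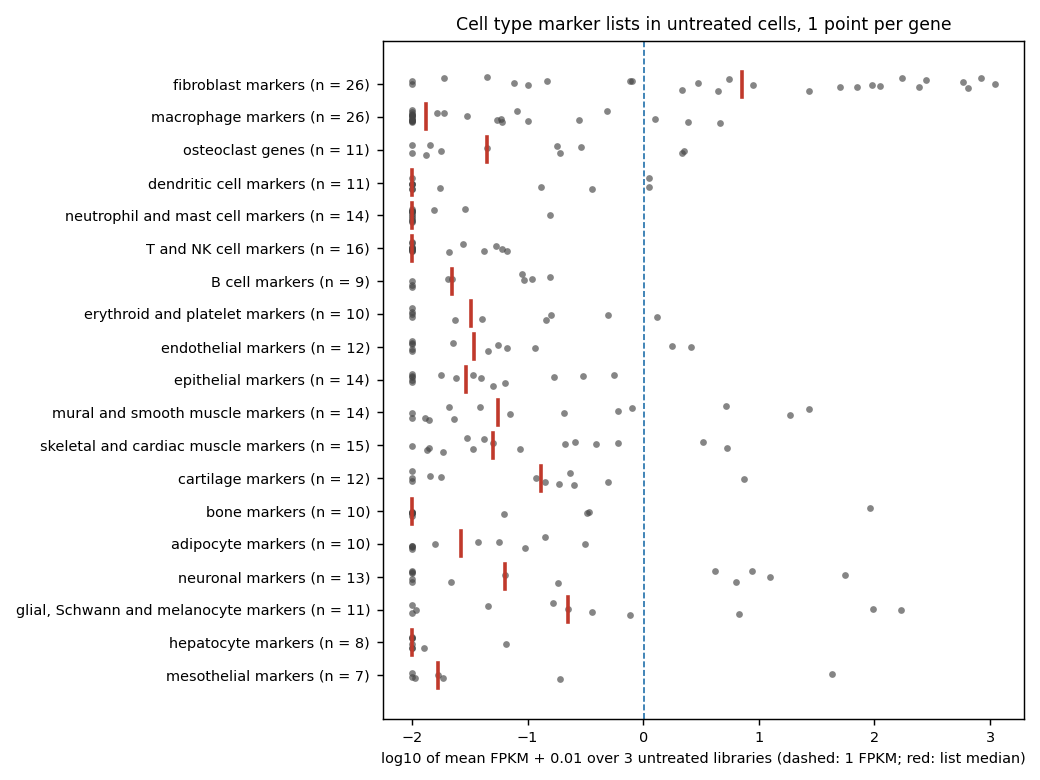
Each grey point is 1 gene of 1 of 19 marker lists, placed by the log10 of its mean FPKM plus 0.01 over the 3 untreated libraries, with the red bar at the list median and the dashed line at 1 FPKM. The fibroblast list has 17 of 26 points at or right of the line, the macrophage list 3 of 26 and the glial list 3 of 11. The highest points of the glial list are Ngfr and Sox10.

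Among the other marker lists, genes that stand for a mature lineage were mostly undetected. Of all protein-coding genes 50.6% reached 1 FPKM and 27.5% were listed at 0 in all 3 libraries. No member reached 1 FPKM in the lists for neutrophils and mast cells (14 genes), T and NK cells (16), B cells (9), epithelium (14), adipocytes (10) and hepatocytes (8). Cdh1 (E-cadherin) had a mean of 0.0532 FPKM and Epcam of 0.0141. The endothelial genes Cdh5 and Tie1 were listed at 0, and Pecam1 was at 0.0355 FPKM. Among osteoclast genes 2 of 11 reached the threshold, Nfatc1 at 2.24 ± 0.0511 FPKM and Itgb3 at 2.14 ± 0.235 FPKM, while Acp5 was listed at 0 and Ctsk had 0.281 FPKM.

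Some lists held 1 or a few genes above the threshold, which 50.6% of all protein-coding genes reached. Spp1 (osteopontin) stood at 93.05, 92.2 and 90.5 FPKM and was the only one of 10 bone markers at 1 FPKM, with Bglap, Ibsp and Sp7 listed at 0. Msln (mesothelin) was at 40.8, 47.1 and 40.3 FPKM, and the remaining 6 mesothelial markers were below 1 FPKM. Of 14 mural and smooth muscle markers 3 reached 1 FPKM: Acta2, the smooth muscle actin, at 26.9 ± 0.910 FPKM, Smtn (smoothelin), a smooth muscle cytoskeletal protein, at 18.5 ± 0.576 FPKM and Notch3, a receptor of mural cells, at 5.20 ± 0.200 FPKM. Among the members below 1 FPKM, Lmod1 had 0.792 FPKM, Tagln 0.196, Cnn1 0.0289 and the smooth muscle myosin Myh11 0.0131. In the neuronal list Tubb3 was at 55.3 ± 2.30 FPKM, Uchl1 at 12.4 ± 0.649 FPKM and Map2 at 8.67 ± 1.56 FPKM, whereas Rbfox3, Stmn2, Syt1 and Dcx, which mark differentiated neurons, were listed at 0. Of 53 keratin genes 2 reached 1 FPKM, and of 32 claudins Cldn12 alone did, at 17.3 ± 0.399 FPKM, against 50.6% of all protein-coding genes. Exon overlap with other genes was annotated for Spp1, Smtn, Notch3, Tagln, Uchl1 and Map2.

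The most abundant transcripts outside mitochondrially encoded and ribosomal protein genes came from translation, glycolysis, protein folding, the cytoskeleton and the matrix. Eef1a1 led with 5900.5, 5761 and 5788 FPKM, followed by Eef2 at 2913 ± 51.3 FPKM. Both encode elongation factors of the ribosome. Tpt1, a translationally controlled protein, followed with 1349 ± 35.6 FPKM. Mif, a cytokine that is also made by many non-immune cells, came next with 1386, 1336 and 1237 FPKM. Glycolytic enzymes among the first 30 were Pkm at 1177 ± 61.7 FPKM, Eno1 at 631 ± 47.1 FPKM and Pgk1 at 586 ± 74.7 FPKM. Chaperones were Hsp90ab1 at 1138 ± 17.2 FPKM, Ppia at 835 ± 33.1 FPKM and Hspa8, which was at 791, 702 and 545 FPKM and so was lowest in library 3.

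Matrix and mesenchymal genes took 8 places in the first 30. Among them were S100a4, Lgals1, Sparc, Col1a1, Fn1 and Col3a1, with the values above, and Mmp2, the type IV collagenase, and Vim, the intermediate filament of mesenchymal cells, stood beside them at 589 ± 2.25 FPKM and 580.2 ± 50.5 FPKM. Lysosomal and endosomal genes were represented by Cd63 at 908 ± 33.5 FPKM and Psap at 579 ± 10.5 FPKM. Ftl1, the light chain of ferritin, was at 938 ± 11.6 FPKM. Tmsb10 at 678 ± 29.04 FPKM, Pfn1 at 600.2 ± 1.95 FPKM and Tuba1a at 525 ± 18.9 FPKM belong to the cytoskeleton. The remaining members were Rack1 at 946 ± 33.1 FPKM, Pabpc1 at 840.1 ± 28.5 FPKM, Naca at 756 ± 30.6 FPKM, Atp5b at 649 ± 30.3 FPKM, Npm1 at 527 ± 14.5 FPKM and the predicted gene Gm10260, which differed most between libraries with 483, 752 and 746 FPKM. In 20 of the 29 pairs of neighbours in this order the ranges of both genes over the libraries overlapped, so by range alone those neighbours cannot be ordered. Values were not matched by library for this count. Lgals1, for example, exceeded its neighbour Sparc in each library although their ranges overlapped. The median coefficient of variation of the 30 genes was 3.58%. Exons of Eef1a1, Pkm, Hspa8, Ftl1, Tuba1a, Rack1 and Gm10260 overlap another annotated gene.

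**Figure D2:**
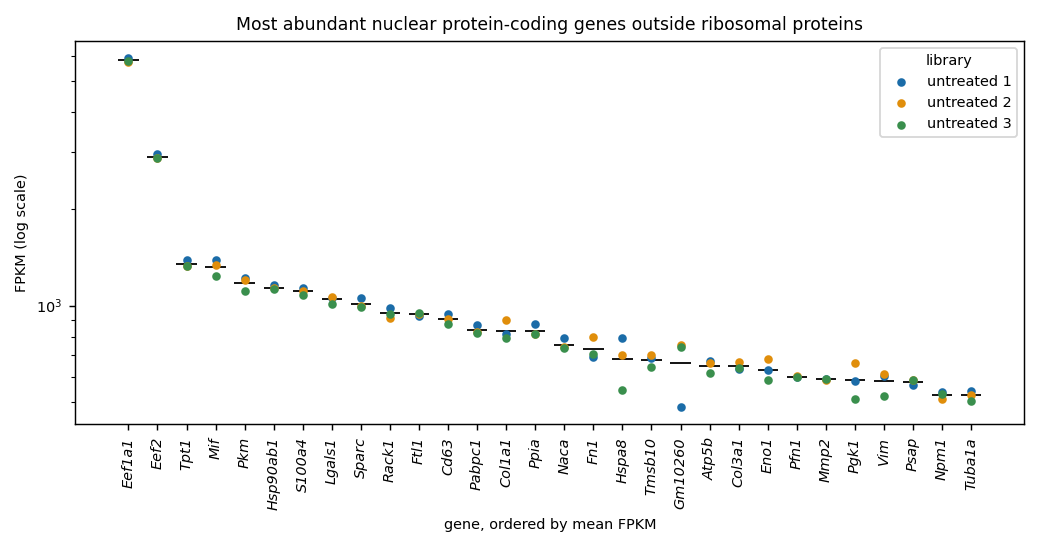
The 30 nuclear protein-coding genes with the highest mean FPKM outside ribosomal proteins are shown from left to right, with 1 point per untreated library on a log scale and a bar at the mean. Eef1a1 and Eef2 stand apart from the rest, and Col1a1, Fn1 and Col3a1 lie in the same range as chaperones and glycolytic enzymes.

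The 100 most abundant identifiers took 32.3 ± 0.55% of the FPKM sum and the first 1000 took 61.9 ± 0.56%. Without mitochondrially encoded and ribosomal protein genes, the first 100 took 24.0 ± 0.38%. Of the first 50 identifiers 39 were protein-coding, 7 were annotated as pseudogenes and 4 as miRNA genes. Reads of pseudogenes with near-identical mitochondrial or ribosomal parents can be shared with them, so those levels are uncertain and the pseudogenes are not described further. Poly-A selection and gene models of miRNA length make the miRNA-annotated values no measure of mature miRNAs. Among long noncoding RNAs Malat1 was at 264 ± 14.2 FPKM and Gas5 at 152 ± 3.73 FPKM.

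The start regions of detected and undetected genes differed in their content of CpG, the dinucleotide at which vertebrate DNA is methylated and which is enriched in the promoters of widely used genes. The promoters below are from RefSeq (build GRCm38.p6) and show the 250 bases before the transcription start of 2 matrix genes, 2 neural crest genes and 2 macrophage genes, written 5′ to 3′ on the strand of the gene, with each CpG in capitals. They are shown because genes at high levels in these cells start from both CpG-poor and CpG-rich sequences.
Col3a1, chr1:45311288-45311537, plus strand: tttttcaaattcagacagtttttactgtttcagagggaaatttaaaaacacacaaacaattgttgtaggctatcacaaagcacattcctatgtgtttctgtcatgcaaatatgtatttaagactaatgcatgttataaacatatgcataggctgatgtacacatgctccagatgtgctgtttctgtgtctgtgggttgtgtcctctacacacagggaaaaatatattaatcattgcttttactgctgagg
Sparc, chr11:55420081-55420330, minus strand: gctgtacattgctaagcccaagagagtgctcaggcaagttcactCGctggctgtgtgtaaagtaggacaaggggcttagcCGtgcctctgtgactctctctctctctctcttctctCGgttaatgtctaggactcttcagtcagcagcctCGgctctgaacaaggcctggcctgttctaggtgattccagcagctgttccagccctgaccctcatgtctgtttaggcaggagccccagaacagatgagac
Foxd3, chr4:99656049-99656298, plus strand: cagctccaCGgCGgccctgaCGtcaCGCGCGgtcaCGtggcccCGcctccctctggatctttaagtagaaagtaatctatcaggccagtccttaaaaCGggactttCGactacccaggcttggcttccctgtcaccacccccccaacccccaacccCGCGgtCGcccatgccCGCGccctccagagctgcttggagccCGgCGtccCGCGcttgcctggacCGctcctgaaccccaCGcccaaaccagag
Ngfr, chr11:95587699-95587948, minus strand: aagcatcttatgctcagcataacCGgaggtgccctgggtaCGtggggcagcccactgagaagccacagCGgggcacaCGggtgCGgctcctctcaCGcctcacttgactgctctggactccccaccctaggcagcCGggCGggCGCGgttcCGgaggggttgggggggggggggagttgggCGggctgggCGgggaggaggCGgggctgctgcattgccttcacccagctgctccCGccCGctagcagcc
Lyz2, chr10:117282273-117282522, minus strand: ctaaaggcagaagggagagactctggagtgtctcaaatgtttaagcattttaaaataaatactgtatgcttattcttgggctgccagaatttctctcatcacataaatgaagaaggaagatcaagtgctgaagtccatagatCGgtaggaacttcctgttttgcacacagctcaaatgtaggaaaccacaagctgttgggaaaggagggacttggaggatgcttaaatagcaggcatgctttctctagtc
Itgam, chr7:128062390-128062639, plus strand: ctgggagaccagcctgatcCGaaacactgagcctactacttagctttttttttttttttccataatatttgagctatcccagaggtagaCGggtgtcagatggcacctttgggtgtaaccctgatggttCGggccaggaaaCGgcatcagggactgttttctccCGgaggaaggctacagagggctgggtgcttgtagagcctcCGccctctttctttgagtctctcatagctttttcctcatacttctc
The Col3a1 sequence holds no CpG and Sparc holds 4, at mean levels of 647 and 1014 FPKM. Foxd3 holds 21 and Ngfr 16, at 94.4 and 169 FPKM. Lyz2 and Itgam, at 0.481 FPKM and listed at 0, hold 1 and 6.

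Over windows of 300 bases (250 before and 50 after the start), 16513 of 21871 protein-coding symbols matched an entry and 13835 of them had exactly 1 listed start. Of the genes with 0 to 4 CpG in that window 6.72% (274 of 4080) reached 1 FPKM in the untreated cells. The share was 26.9% with 5 to 9 CpG, 67.9% with 10 to 19 and 83.1% (4223 of 5083) with 20 or more. The median level followed the same order, from 0 FPKM in the lowest class to 10.6 FPKM in the highest. A mean of 100 FPKM was reached by 0.221% of genes in the lowest class and by 3.66% in the highest. Col3a1 and Sparc belong to the lowest class and so are exceptions in it. The letters TATAAA, searched on both strands, stood in 13.7% of all windows, in 6.25% of those of genes at 1 FPKM or more and in 21.3% of the rest. Among the 14 fibroblast markers with 1 listed start, 7 had fewer than 5 CpG and 5 of these 7 reached 1 FPKM. Of the 17 macrophage markers with 1 listed start, 9 had fewer than 5 CpG and 1 of these 9 reached 1 FPKM. These matches describe letters in a window and say nothing of factor binding or methylation, which were not measured.

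Most lineage transcription factors of mesenchyme were detected, those of neural tissue and the crest were divided, and most of those of blood, epithelium, heart and endothelium were below the threshold. Of 11 neural and neural crest factors 6 (54.5%) reached 1 FPKM with a median of 1.16 FPKM, against 50.6% of all protein-coding genes. The detected members were Sox10, Sox2, Tfap2a, Pou3f1, Olig2 at 3.17 ± 0.122 FPKM and Mitf, while the neuronal factors Neurod1 and Neurog2 were listed at 0. Sox10 (ENSMUSG00000033006) had the highest level of all members of the transcription factor lists, at 93.96, 101 and 97.4 FPKM. It was the highest of 19 Sox genes and took 38.3 ± 1.14% of their summed FPKM. Sox4, a Sox gene of many progenitors, followed at 63.7 ± 0.576 FPKM. Sox2, which acts in neural and early Schwann cells as well as in pluripotent cells, was at 41.2 ± 1.51 FPKM, while the pluripotency genes Pou5f1, Zfp42 and Sall4 were listed at 0 and Nanog was at 0.232 FPKM. Foxd3 (ENSMUSG00000067261), the crest forkhead factor, was at 97.5, 93.2 and 92.6 FPKM and was the highest of 44 Fox genes, with 29.1 ± 0.767% of their sum. Tfap2a, a factor of crest and epidermis, was at 14.6 ± 0.251 FPKM, whereas Tfap2b was listed at 0. Pax3, known from crest and muscle precursors, was at 13.3 ± 0.134 FPKM and took 90.8 ± 0.956% of the Pax sum. Sox9 stood at 10.8 ± 0.328 FPKM, lower than Sox10 by a factor of 9.01 ± 0.315 in FPKM.

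Of 35 mesenchymal transcription factors 27 (77.1%) reached 1 FPKM, against 50.6% of all protein-coding genes, with a median of 9.51 FPKM. The highest was Nr2f1 (COUP-TFI) at 76.1, 76.8 and 81.4 FPKM, an orphan nuclear receptor also known from the crest. The Hippo pathway effectors Yap1 and Wwtr1 (TAZ) were at 53.3 ± 1.89 FPKM and 41.6 ± 4.56 FPKM. Factors of epithelial-to-mesenchymal transition were all detected, Zeb2 at 53.5 ± 0.800 FPKM, Twist1 at 24.8 ± 0.0530 FPKM, Snai1 at 14.4 ± 0.345 FPKM, Zeb1 at 14.1 ± 1.30 FPKM, Snai2 at 13.3 ± 0.540 FPKM and Twist2 at 12.5 ± 1.05 FPKM. Twist1 was the steadiest of them, with 24.8, 24.9 and 24.8 FPKM. Foxf1, a factor of splanchnic mesoderm, was at 24.5 ± 0.303 FPKM. Prrx1, Tcf21, Meox1, Meox2 and Tbx5, which mark limb, visceral, somitic or cardiac mesenchyme, were listed at 0 in all 3 libraries.

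Positional genes were partly detected. Of 39 Hox genes 11 reached 1 FPKM, against 50.6% of all protein-coding genes. Hoxb9 at 25.8 ± 0.260 FPKM took 38.3 ± 2.33% of the Hox sum, with Hoxd8 at 8.07 ± 0.173 FPKM and Hoxa5 at 6.03 ± 0.231 FPKM next. Tbx18 led 13 Tbx genes at 9.93 ± 0.258 FPKM. None of 14 Nkx genes reached 1 FPKM, against the same 50.6%.

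Of 23 myeloid and haematopoietic factors 4 (17.4%) reached 1 FPKM, against 50.6% of all protein-coding genes. They were Maf at 27.7 ± 3.09 FPKM, Gata2 at 3.73 ± 0.259 FPKM, Cebpa at 1.76 ± 0.0361 FPKM and Ikzf2 at 1.03 ± 0.299 FPKM. Spi1, Ikzf1, Tal1, Gfi1b, Cebpe and Tfec were listed at 0, and Irf8 was at 0.153 FPKM. In the skeletal muscle list Mef2c and Pax3 were detected, and the myogenic regulators Myod1, Myf5 and Myog were listed at 0. Mef2c varied between libraries, with 14.3, 22.1 and 7.97 FPKM. Runx2, needed for bone, was at 18.8 ± 1.43 FPKM while Sp7, which acts after it, was listed at 0. Cebpb was at 23.3 ± 1.37 FPKM while Pparg, the adipocyte regulator, was listed at 0. None of 8 cardiac factors, 1 of 16 epithelial factors (Klf5, 5.15 ± 0.303 FPKM) and 2 of 10 endothelial factors reached the threshold, against the same 50.6%. Of the signal-dependent factors Stat6 was the highest Stat gene at 58.6 ± 1.04 FPKM and Irf3 the highest Irf gene at 21.1 ± 1.97 FPKM. Exons of Sox4, Foxd3, Tfap2a, Nr2f1, Yap1, Zeb2, Zeb1, Twist2, Foxf1, Tbx18, Maf, Cebpa, Ikzf2, Runx2, Cebpb, Stat6 and Irf3 overlap those of other genes. So do exons of Neurod1, Pou5f1 and Sall4, which were listed at 0.

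**Figure D3:**
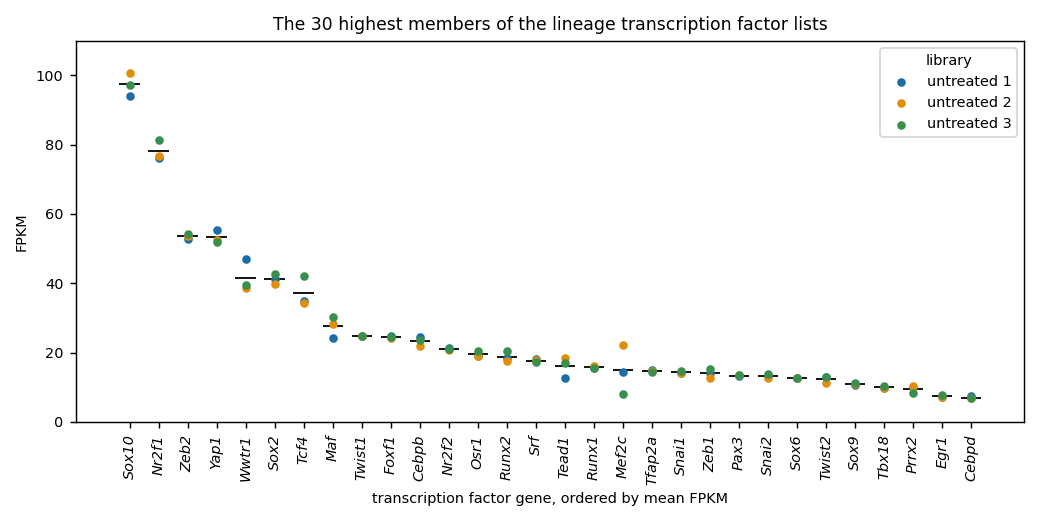
FPKM of the 30 highest members of the lineage transcription factor lists, 1 point per untreated library with a bar at the mean. Sox10 and Nr2f1 lead, most points of a gene coincide, and Mef2c is the gene whose 3 libraries lie farthest apart for its level.

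Because Sox10 and Ngfr were high, further lists of the glial lineage were drawn up after the values were seen, and they are given as description only. Genes of the neural crest and early Schwann cells were mostly detected, and genes of myelin mostly not. Of 27 early lineage genes 21 (77.8%) reached 1 FPKM and the median was 17.5 FPKM. In the myelin list 7 of 21 (33.3%) did, with a median of 0.214 FPKM, against 50.6% of all protein-coding genes. In the earlier list of glial, Schwann and melanocyte markers 3 of 11 (27.3%) reached 1 FPKM, with a median of 0.214 FPKM. The early lineage list holds Sox10 and Ngfr, which prompted it. The early list summed to 977 to 1008 FPKM per library. Ngfr, the low-affinity neurotrophin receptor, was at 169, 165 and 174 FPKM. Cdh19, a cadherin of Schwann cell precursors, was at 84.00, 83.1 and 93.3 FPKM. For both genes the libraries lay close together. Erbb3 (ENSMUSG00000018166) was at 56.3, 62.1 and 59.2 FPKM. Nes (nestin) was at 80.1 ± 3.76 FPKM, Moxd1, a monooxygenase described in migrating crest, at 79.7 ± 3.18 FPKM, Ets1 at 39.97 ± 0.992 FPKM and the calcium-binding S100b at 6.70 ± 0.149 FPKM. The adhesion molecules L1cam and Ncam1 were at 29.4 ± 1.61 FPKM and 17.5 ± 2.44 FPKM.

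Members below 1 FPKM in the early list were Tfap2b, listed at 0, Gap43 at 0.0180 FPKM, Ednrb at 0.0259, Dhh at 0.286, Gfap at 0.347 and Sox8 at 0.385. Fabp7 and Itga4 were just above the threshold, at 1.25 ± 0.153 FPKM and 1.31 ± 0.159 FPKM. In the myelin list Mag, Gjb1, Ugt8a and Mobp were listed at 0 and Mbp had 0.230, 0.141 and 0.272 FPKM. Egr2 (KROX20), the regulator of peripheral myelination, was just under the threshold at 0.679, 0.952 and 0.933 FPKM, and Pou3f1 (OCT6), which acts before it, was at 4.88 ± 0.166 FPKM. The highest genes of the myelin list were Cadm4, an adhesion molecule, at 60.03 ± 0.314 FPKM, Cnp, an enzyme of non-compact myelin, at 49.8 ± 0.571 FPKM, the connexin gene Gjc3 at 27.1 ± 1.45 FPKM and Pmp22, which many other cells make, at 18.8 ± 1.74 FPKM. Prx (periaxin), a protein of myelinating Schwann cells, was at 1.41 ± 0.0456 FPKM.

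The signalling genes of this lineage were unevenly represented. The neuregulin receptor Erbb3 exceeded its partner Erbb2 by a factor of 7.07 ± 0.0935 in FPKM, Erbb2 standing at 8.37 ± 0.315 FPKM, Egfr at 10.3 ± 0.299 FPKM and Erbb4 at 0.00136 FPKM. The ligand gene Nrg1 was at 1.14 ± 0.139 FPKM. Lgi4, a secreted ligand needed for Schwann cell maturation, was at 38.5 ± 1.91 FPKM, and Adgrg6 (GPR126), the adhesion receptor needed for myelination, was at 34.5 ± 1.48 FPKM. The neurotrophic ligands Artn (artemin) and Gdnf were at 33.8, 38.6 and 34.9 FPKM and 19.5, 20.7 and 20.3 FPKM. Of the co-receptors of the GDNF family Gfra1 and Gfra2 were at 7.88 ± 0.565 FPKM and 11.4 ± 0.632 FPKM. The signalling receptor Ret and the artemin co-receptor Gfra3 were listed at 0. Of 15 genes that Schwann cells are known to induce after nerve injury 10 (66.7%) were detected, against 50.6% of all protein-coding genes. This list was also drawn up after the values were seen, and its highest member was Ngfr. Jun was at 101 ± 1.77 FPKM, while Shh was listed at 0 and Olig1 was at 0.0307 FPKM.

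Melanocyte genes were low except for Gpnmb, a lysosomal glycoprotein that macrophages and other cells also make, at 300.1, 297 and 319 FPKM. Mitf was at 1.16 ± 0.0801 FPKM, Pmel at 0.753 FPKM and Dct at 0.000740 FPKM, and Tyr, Tyrp1 and Kit were listed at 0. Exon overlap affects L1cam, Ncam1, Dhh, Sox8, Itga4, Pou3f1, Cnp, Prx, Erbb2, Nrg1, Lgi4, Adgrg6, Gfra1, Jun, Olig1 and Pmel in the glial lists. Mobp and Shh, both listed at 0, are affected as well.

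**Figure D4:**
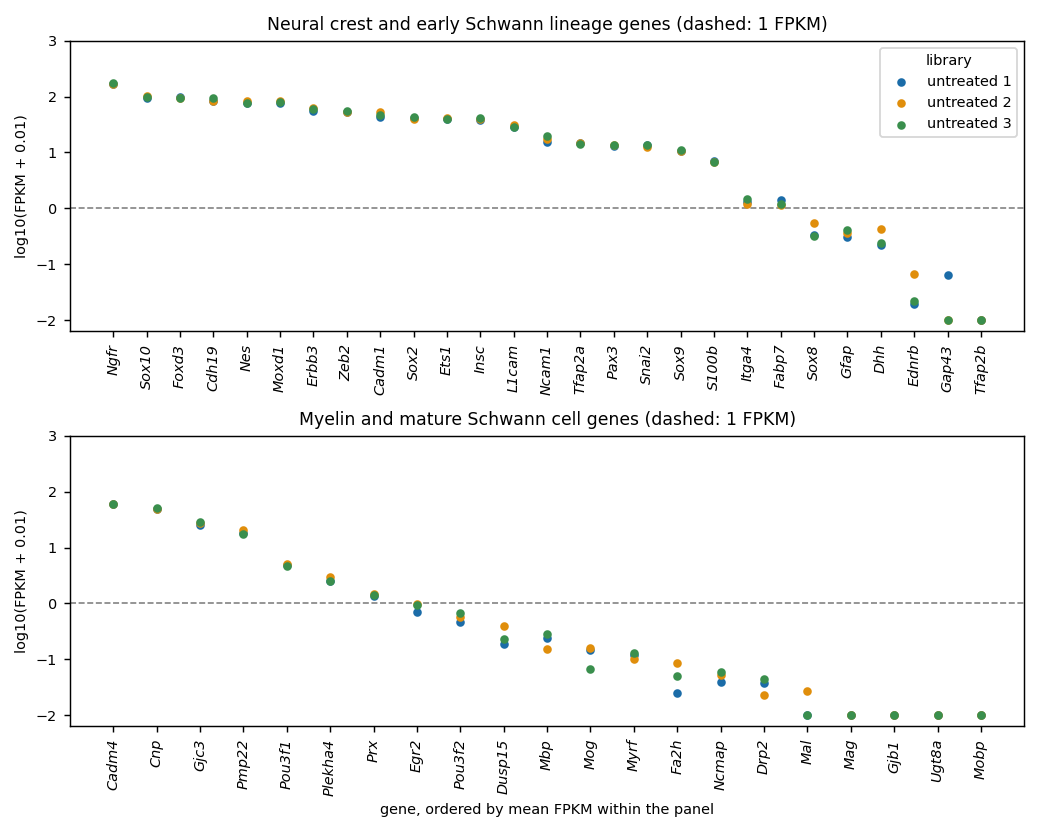
The log10 of FPKM plus 0.01 in each untreated library for 27 neural crest and early Schwann lineage genes (top) and 21 myelin and mature Schwann cell genes (bottom), with the dashed line at 1 FPKM. In the top panel 21 genes lie above the line with their 3 points together, and in the bottom panel 7 do, with Mag, Gjb1, Ugt8a and Mobp at the floor.

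Among surface receptors, single receptors for growth factors and matrix were high, while several receptors of leukocytes were at or near 0. Of 42 receptor tyrosine kinases 22 (52.4%) reached 1 FPKM with a median of 1.37 FPKM, a share close to the 50.6% of all protein-coding genes. Axl, which binds GAS6, was the highest at 130.3, 140.0 and 129 FPKM, above its relative Mertk by a factor of 54.9 ± 6.44. Fgfr1 was at 108, 123 and 136 FPKM and the other FGF receptors, Fgfr2, Fgfr3 and Fgfr4, were each below 1 FPKM. The collagen receptors Ddr1 and Ddr2 were at 61.2 ± 2.77 FPKM and 50.2 ± 0.714 FPKM. Met, the receptor for hepatocyte growth factor, was at 27.4 ± 2.62 FPKM, and Igf1r at 26.7 ± 0.930 FPKM. Kit and Ntrk2 were listed at 0.

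Receptors of the TNF superfamily are of interest because the series treats these cells with tumour necrosis factor. Both of its receptors were present at rest, Tnfrsf1a at 36.01, 36.7 and 36.1 FPKM and Tnfrsf1b at 15.6, 17.4 and 16.8 FPKM, a ratio of 2.19 ± 0.101. Of the 25 genes of the superfamily 13 (52%) were detected, a share close to the 50.6% of all protein-coding genes. Ngfr was the highest, with 43.3 ± 1.13% of their sum, followed by Tnfrsf12a (the TWEAK receptor) at 74.7 ± 5.52 FPKM. Ltbr (the lymphotoxin beta receptor) was at 33.4 ± 0.302 FPKM. Fas was near the threshold at 1.17 ± 0.146 FPKM, and Cd40 and Tnfrsf11a (RANK, the osteoclast receptor) were at 0.00857 and 0.00328 FPKM.

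Of 35 cytokine receptor genes 20 (57.1%) reached 1 FPKM, a share not far above the 50.6% of all protein-coding genes. Il6st (gp130, shared by the interleukin-6 family) was at 44.6 ± 1.04 FPKM, Il17rc at 33.6 ± 1.43 FPKM, and the interferon receptor chains Ifngr1 and Ifnar1 at 31.5 ± 4.77 FPKM and 28.4 ± 5.41 FPKM. Il1r1, the signalling receptor for interleukin-1, was at 8.80 ± 1.02 FPKM. The leukocyte chains Il10ra, Il7r, Il21r, Csf2rb and Csf3r were listed at 0. Of 15 Toll-like receptor genes and co-receptors 7 (46.7%) were detected, which is also close to the share of all protein-coding genes. Tlr4, the lipopolysaccharide receptor, was at 13.6, 12.5 and 2.24 FPKM, with library 3 far below the other 2, while its partner Ly96 was at 5.45, 5.90 and 6.50 FPKM. Of the endosomal sensors of nucleic acids Tlr3 was at 4.13 ± 0.322 FPKM and Tlr7 at 0.0164 FPKM, and Tlr8, Tlr9 and Tlr13 were listed at 0. Of 20 chemokine and chemoattractant receptors Ackr3 alone (5%) reached the threshold, against 50.6% of all protein-coding genes. Ackr3 was at 1.77 ± 0.348 FPKM, and Ccr1, Ccr2 and C5ar1 were listed at 0.

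Among endocytic receptors Lrp1, which clears proteases and lipoproteins, was at 313, 341 and 336 FPKM and Mrc2, the collagen uptake receptor, at 107, 114 and 115 FPKM, whereas the macrophage lectins and scavenger receptors Mrc1, Msr1, Marco, Clec7a and Cd36 were listed at 0. The thrombin receptor F2r was at 105 ± 1.25 FPKM and the lysophosphatidic acid receptor Lpar1 at 28.02 ± 1.54 FPKM. Of 13 receptors for the TGF-beta and BMP family 10 (76.9%) were detected, against 50.6% of all protein-coding genes. The highest were Tgfbr2 at 47.5 ± 2.26 FPKM and Eng (endoglin) at 44.00 ± 1.15 FPKM. Integrin chains included Itgb1 at 269 ± 10.4 FPKM, Itgb5 at 212 ± 21.9 FPKM, the laminin receptor chain Itga7 at 89.2 ± 5.79 FPKM and the fibronectin receptor chain Itga5 at 52.7 ± 1.73 FPKM. The leukocyte integrin chains Itgam, Itgax and Itgad were listed at 0 and Itgb2 was at 1.47 ± 0.299 FPKM. Of the antigens used to sort stromal progenitors, Mcam was at 81.4 ± 2.45 FPKM, Cd44 at 31.9 ± 2.29 FPKM, Ly6a (SCA-1) at 13.03 ± 4.07 FPKM and Nt5e (CD73) at 12.3 ± 0.773 FPKM, while Cd34 was at 0.0302 FPKM. For Fgfr1, Ddr1, Ddr2, Tlr3, Eng, Itga7, Mcam and Cd34, exons overlap another annotated gene.

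Secreted signals detected at rest included growth factors and a small set of chemokines, with several classical inflammatory cytokines undetected. Tnf, Il1b, Il10, Il12b, Osm and Ifnb1 were listed at 0 in all 3 libraries, and Il6 was at 0.0125 FPKM. Mif took 88.7 ± 0.639% of the summed FPKM of 30 cytokine genes. Of these 9 (30%) were detected, against 50.6% of all protein-coding genes. Csf1 and Il34, both known as ligands of CSF1R, were at 20.2, 21.8 and 23.1 FPKM and 16.1, 15.3 and 17.7 FPKM, beside Csf1r at 0.0442 FPKM. Il18 was at 16.2 ± 0.184 FPKM and Lif at 6.92 ± 0.694 FPKM. Of 27 chemokines 8 (29.6%) reached 1 FPKM. The monocyte attractants Ccl2 and Ccl7 were at 38.1, 32.7 and 37.1 FPKM and 18.4, 16.4 and 15.8 FPKM. Cx3cl1 was at 15.99 ± 0.650 FPKM, Ccl25 at 14.5 ± 0.491 FPKM and Cxcl12 at 8.17 ± 0.842 FPKM. Ccl3 and Ccl4, which macrophages make, were listed at 0.

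Of 45 growth factor and morphogen genes 25 (55.6%) were detected, a share not far above the 50.6% of all protein-coding genes. Bmp1, which is a procollagen protease rather than a ligand, was the highest at 102 ± 1.73 FPKM, followed by Vegfa at 57.4 ± 4.32 FPKM, Vegfb at 37.5 ± 1.505 FPKM, Tgfb1 at 29.97 ± 0.764 FPKM and Inhbb (an activin chain) at 29.6 ± 0.595 FPKM. The PDGF genes Pdgfa and Pdgfb were at 24.2 ± 4.07 FPKM and 18.5 ± 0.773 FPKM. Igf2, Bmp7 and Gdf10 were listed at 0, and the fibroblast growth factors Fgf2, Fgf7 and Fgf10 were below 1 FPKM. The IGF-binding proteins Igfbp7 and Igfbp4 were at 161 ± 7.33 FPKM and 126 ± 1.88 FPKM. Of 17 complement genes 4 (23.5%) were detected, against 50.6% of all protein-coding genes. They were C1s1 at 17.3 ± 2.20 FPKM, C1ra at 15.3 ± 1.08 FPKM, C3 at 8.77 ± 0.709 FPKM and Cfp at 5.63 ± 0.0829 FPKM, with the macrophage-derived C1q chains at 0. Of 25 Wnt ligands and antagonists 4 (16%) reached 1 FPKM, against 50.6% of all protein-coding genes, Wnt9a being the highest at 8.25 ± 0.742 FPKM.

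Proteases of the matrix were led by Mmp2, at 589.7, 587 and 591 FPKM, which took 71.2 ± 0.133% of the summed FPKM of 19 metalloproteinases. Mmp14, the membrane enzyme that activates it, was at 148 ± 2.13 FPKM and their inhibitor Timp2 at 228 ± 1.30 FPKM. The ratio of Mmp2 to Timp2 was 2.58 ± 0.0153 and hardly varied between libraries. Mmp9, Mmp12 and Mmp13, which macrophages, osteoclasts or activated fibroblasts make, were at 0.182 FPKM, 0 and 0.0380 FPKM. The plasminogen activators Plat and Plau were at 67.4 ± 0.877 FPKM and 33.96 ± 1.44 FPKM. Exons of Il34, Csf1r, Ccl25, Pdgfa, Igfbp7 and C1s1 are shared with overlapping genes.

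The leading matrix genes were interstitial collagens, single basement membrane genes and adhesive glycoproteins, with elastin, type II collagen and aggrecan at or near 0. Of 11 fibrillar collagen genes 8 (72.7%) reached 1 FPKM, against 50.6% of all protein-coding genes. The 11 genes together summed to 2203 to 2409.7 FPKM per library. After Col1a1 and Col3a1 came Col5a2 at 369.7, 397 and 382 FPKM, Col1a2 at 259, 293 and 278 FPKM and Col5a1 at 87.97, 105 and 92.3 FPKM. Type I collagen holds more Col1a1 than Col1a2 chains, and the ratio of their FPKM was 3.02 ± 0.161. Type V collagen most often holds more Col5a1 than Col5a2 chains, and here Col5a2 exceeded Col5a1 by a factor of 4.04 ± 0.227 in FPKM. The cartilage collagen Col2a1 had 0.132 FPKM and the cartilage proteoglycan Acan was listed at 0.

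Single basement membrane genes were high as well, but their lists were not detected far above the 50.6% of all protein-coding genes. Of 9 basement membrane and network collagens 4 (44.4%) reached 1 FPKM. The shares were 10 of 24 (41.7%) for beaded filament and other collagens and 6 of 11 (54.5%) for laminins. The type IV chains Col4a1 and Col4a2 were at 132 ± 2.33 FPKM and 94.6 ± 4.36 FPKM, Col18a1 at 280.1, 302 and 292 FPKM and the heparan sulphate proteoglycan Hspg2 (perlecan) at 154 ± 7.81 FPKM. Among 11 laminin chains Lamb1 was at 83.9 ± 1.89 FPKM, Lamc1 at 77.1 ± 2.23 FPKM and Lama5 at 59.2 ± 1.99 FPKM. Lama2, the chain of Schwann cell and muscle basement membrane, was at 0.103 FPKM and Lama1 was listed at 0. Nid2 was at 90.6 ± 10.95 FPKM and its relative Nid1 at 0.735 FPKM. Type VI collagen was uneven: Col6a1 was at 172 ± 4.39 FPKM, Col6a2 at 38.8 ± 2.64 FPKM and Col6a3 at 4.85 ± 0.906 FPKM, although a chain of each is assembled into the protein.

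Adhesive and matricellular glycoproteins included, after Sparc and Fn1, the latent TGF-beta binding protein Ltbp3 at 248 ± 12.5 FPKM, Postn at 239.6, 235 and 253 FPKM, Tgfbi at 139 ± 3.57 FPKM, Emilin1 at 101 ± 10.1 FPKM and Tnc (tenascin-C) at 68.1 ± 2.66 FPKM. Eln (elastin), Fbln5 and Efemp1 were listed at 0 and Fbn1 (fibrillin-1) was at 6.55 ± 0.195 FPKM. Of 38 glycoprotein genes 20 (52.6%) and of 25 proteoglycan genes 13 (52%) reached 1 FPKM. Both shares were close to the 50.6% of all protein-coding genes. Among the proteoglycans the surface proteins Gpc1 and Sdc3 were at 201 ± 4.31 FPKM and 85.6 ± 2.21 FPKM and Agrn (agrin) at 68.9 ± 4.24 FPKM. The small leucine-rich members were divided: Ogn (osteoglycin) was at 61.7 ± 0.527 FPKM and Prelp at 24.8 ± 1.77 FPKM, Bgn at 6.51 ± 0.400 FPKM and Dcn at 2.94 ± 0.243 FPKM, and Lum and Kera were listed at 0. Srgn (serglycin), the proteoglycan of blood cell granules, was listed at 0 too.

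The enzymes that make collagen were nearly all present, with 20 of 24 genes (83.3%) detected and a median of 38.7 FPKM. Of all protein-coding genes 50.6% were detected. P4hb and P4ha1, subunits of prolyl 4-hydroxylase, were at 341 ± 5.53 FPKM and 112 ± 8.77 FPKM, the collagen chaperone Serpinh1 at 131 ± 1.67 FPKM and Pcolce, the enhancer of procollagen cleavage, at 310.1 ± 29.1 FPKM. The crosslinking enzyme Lox was at 16.5 ± 1.33 FPKM, Loxl3 at 5.60 ± 0.248 FPKM, and Loxl1 and Loxl2 were below 1 FPKM. Overlapping exons were annotated for Col5a1, Col4a1, Col4a2, Lama2, Nid2, Nid1, Ltbp3, Tnc, Fbn1, Gpc1, Sdc3, Prelp, Pcolce, Lox and Loxl3. They were also annotated for Loxl2 and for Eln, which was listed at 0.

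**Figure D5:**
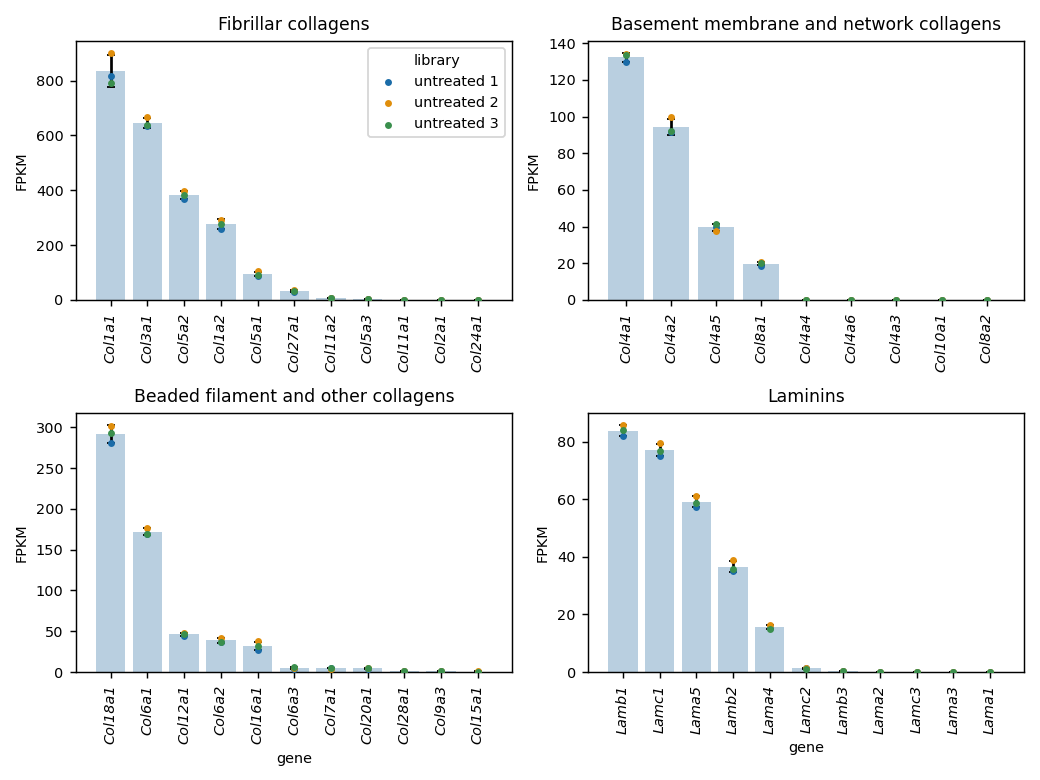
Mean FPKM of fibrillar collagens, basement membrane and network collagens, the 11 highest of 24 beaded filament and other collagens, and laminins (bars), with the SD over 3 libraries as error bars and 1 point per untreated library. Each panel has its own linear axis from 0, and each class is carried by 4 to 6 genes while the rest lie at the axis.

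Among structural genes vimentin, tropomyosins and the non-muscle actins were high, and most keratins, desmin and the smooth muscle myosin Myh11 were below 1 FPKM. Vim took 68.4 ± 3.48% of the summed FPKM of 22 intermediate filament genes, with the keratins Krt8 and Krt18 at 0.550 and 0.0292 FPKM and Des (desmin) at 0.591. Cdh2 (N-cadherin) was the highest of 13 cadherins in the list, which leaves out Cdh19, at 32.7 ± 1.33 FPKM, which is 0.379 ± 0.0375 of the Cdh19 level in FPKM. The non-muscle actins Actb and Actg1 were at 463, 485 and 493 FPKM and 512, 411 and 382 FPKM, and which of them was higher differed between libraries. The non-muscle myosin chains Myl6 and Myh9 were at 339.5 ± 21.02 FPKM and 158 ± 3.78 FPKM, whereas Myl9 was listed at 0. Of 16 tropomyosin, calponin, transgelin and myosin genes 11 (68.75%) reached 1 FPKM, against 50.6% of all protein-coding genes, and the median was 96.00 FPKM. Tpm4, Tpm1, Tpm3 and Tpm2 were at 205 ± 6.14 FPKM, 153 ± 2.54 FPKM, 130.1 ± 5.92 FPKM and 43.7 ± 3.69 FPKM. Cald1 (caldesmon), an actin-binding protein of smooth muscle and other cells, was at 93.8, 137 and 96.5 FPKM, highest in library 2, while Tagln, Cnn1 and Myh11 of the same list were below 1 FPKM. Lgals1 took 91.3 ± 0.314% of the galectin sum, and Lgals3, a galectin abundant in macrophages, was at 60.2 ± 7.48 FPKM. S100a11, S100a10 and S100a6 followed S100a4 at 305 ± 17.6 FPKM, 281 ± 10.4 FPKM and 255 ± 8.71 FPKM, and the myeloid members S100a8 and S100a9 were listed at 0. Anxa5 was the highest annexin at 489.8 ± 47.99 FPKM, and Cavin1, a coat protein of caveolae, was at 88.9 ± 3.84 FPKM with Cav2, a caveolin, at 28.3 ± 2.09 FPKM.

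The untreated cells carried transcripts of dividing cells. All 25 proliferation genes reached 1 FPKM, against 50.6% of all protein-coding genes. The highest were Cdk4 at 263, 269 and 277 FPKM and Ccnd1 (cyclin D1) at 87.1, 85.1 and 82.5 FPKM. Pcna was at 38.98 ± 1.61 FPKM and Mki67 at 5.81 ± 0.373 FPKM. The median of the list was 17.9 FPKM and its lowest member was the mitotic gene Bub1 at 2.70 ± 0.195 FPKM. Cdk1, the mitotic kinase, was at 29.4, 11.1 and 13.96 FPKM and differed between libraries more than the other genes named here. Cell cycle inhibitors and p53 pathway genes were mostly detected too, 13 of 15 (86.7%) reaching 1 FPKM. Among the inhibitors Cdkn2a was at 174, 144 and 143 FPKM and the neighbouring Cdkn2b was listed at 0 in each library. Trp53 was at 89.96 ± 1.16 FPKM, and its targets Mdm2 and Cdkn1a were at 42.3 ± 2.13 FPKM and 12.9 ± 0.931 FPKM. The Y-linked genes Eif2s3y, Ddx3y, Uty and Kdm5d were at 33.1 ± 2.97 FPKM, 15.5 ± 0.768 FPKM, 10.96 ± 0.531 FPKM and 10.4 ± 0.491 FPKM, and Xist was at 0.0256 FPKM. Exons of Krt8, Des, Actg1, Tpm4, Cdk4, Ccnd1, Cdkn1a and Xist overlap other genes in the annotation.

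The 3 libraries agreed closely in most genes. Across the 12669 genes with a mean of at least 1 FPKM, Pearson's r of log2(FPKM + 1) between pairs of libraries was 0.985 to 0.987 and Spearman's rho 0.985 to 0.986; these describe genes of 1 group, which are not independent replicates. Of the 100 most abundant protein-coding genes of each library 88 were shared by all 3. The median coefficient of variation was 10.2% for 6010 genes between 1 and 10 FPKM, 4.96% for 6119 genes between 10 and 100 FPKM and 3.63% for 540 genes above. The median SD of log2(FPKM + 1) was 0.0844, and 215 genes (1.70%) had an SD above 0.5.

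Among protein-coding genes that averaged 10 FPKM or more, the largest SD on that scale belonged to Pcdhgb4 (5.9e-05, 48.6 and 0.00144 FPKM), Hist2h2aa1 (37.1, 19.3 and 0 FPKM), Gm20431 (27.9, 0 and 26.9 FPKM), Kxd1 (63.9, 390.2 and 76.2 FPKM) and Bola1 (2.07, 14.7 and 13.5 FPKM). Pcdhgb4 belongs to the clustered protocadherins, whose transcripts share their last exons, and Hist2h2aa1 is a histone gene with a near-identical copy. The first 4 of these genes overlap exons of others, so reads could be assigned to either gene, and whether that produced the differences was not tested. Scd2, a desaturase of fatty acid synthesis, was chosen after its values were seen: it was at 347, 107 and 107 FPKM, high in library 1. Its exons overlap those of another gene too.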

How the data were processed

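RNA was selected by poly-A, made into paired-end libraries with a TruSeq kit and sequenced on an Illumina NovaSeq, per the labels' protocols. The authors deposited 1 table of FPKM values for 56289 Ensembl gene identifiers; the aligner, the FPKM program, the genome build, the annotation and the use of strand were not given in the sources used here. Only the 3 untreated columns were read, and the 6 columns of treated samples were not used. Identifiers were matched to GENCODE M21 for symbols, gene type and exon overlap: 55144 matched and 1145 did not, 10 of them at 1 FPKM or more. FPKM divide by gene length and by the library's total, so levels of different genes are comparable only on this scale, and a shift of all genes would not be seen. Depth was inferred from the step of single-exon gene values and no count was derived.

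Each gene was given its mean and SD over the 3 libraries. A gene was called detected at a mean of 1 FPKM or more. The members and the 70 gene lists were chosen with earlier results of these data known, and 6 further lists (neural crest, myelin, nerve injury, melanocyte, GDNF and neuregulin genes), the gene families and the ratios were chosen after the values were seen. Named genes are the 30 most abundant protein-coding genes outside ribosomal and mitochondrially encoded ones, up to 5 leading members of each list with defining members at or near 0, members needed to describe how a family divides, and the 5 most variable genes at 10 FPKM or more. Genes named outside this rule were chosen after their values were seen. Some genes are not reported here and are left out of the list counts. The summaries were tested on simulated data. Alternatives were thresholds of 0.5 and 5 FPKM, every library at the threshold, rescaling to a constant sum (TPM), pseudocounts of 0.1 and 5, other filters, and omission of each library. Promoter windows are from RefSeq. Scripts ran under python 3.11.15 with pandas 2.3.3 and numpy 2.4.6, and plots were drawn with matplotlib 3.10.9.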

Additional observations from a re-analysis of the deposited data

How the results depend on the processing

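The count of fibroblast markers at the threshold was 17 of 26 whichever library was omitted and that of macrophage markers was 3, and the number of detected genes ran from 12647 to 12722 over these omissions. The share of the 100 most abundant identifiers ran from 32.0 to 32.6%. The median SD of log2 values ran from 0.0669 to 0.0691 with 1 library omitted, against 0.0844 with all 3. An SD taken over fewer values has a lower median, so this fall does not measure a change in spread. At a threshold of 5 FPKM no macrophage marker remained (0 of 26), against 14 fibroblast markers. Without mitochondrially encoded and ribosomal protein genes the 100 most abundant took 24.0% of the sum in place of 32.3%. With no filter on low genes the median SD was 0. Of the 76 lists 68 kept the same number of detected genes in every omission and 0 moved by over 1.5 times, while 3 moved by that much at 0.5 FPKM and 22 at 5 FPKM. Rescaling each library to a constant sum (TPM) raised the FPKM values by a common factor per library and gave 4 macrophage and 19 fibroblast markers at the threshold. No paired analysis was possible because the description covers 1 group and makes no comparison.

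The depth is only inferred, no counting interval is given, and a listed 0 is not proof of absence.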

Other observations

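Below the 30 most abundant genes, several secretory and lysosomal genes stood out. Cpe, the carboxypeptidase that trims neuropeptide precursors, was at 424 ± 10.6 FPKM. Bsg (basigin), a surface glycoprotein, was at 432 ± 30.9 FPKM, Ctsd (cathepsin D) at 322 ± 2.84 FPKM and Lamp1, a lysosomal membrane protein, at 314 ± 9.69 FPKM. Fth1, the heavy chain of ferritin, was at 511 ± 84.8 FPKM, lower than the light chain Ftl1 at 938 ± 11.6 FPKM in mean FPKM.

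Antigen presentation genes were divided. B2m, the shared chain of class I molecules, was at 212 ± 4.18 FPKM. Of 9 class II genes H2-DMa alone reached 1 FPKM, at 10.1 ± 0.223 FPKM, against 50.6% of all protein-coding genes. H2-Aa and H2-Ab1, which encode the presenting chains, were listed at 0. Cd74, the invariant chain, was at 1.10 ± 0.144 FPKM and Ciita, the class II regulator, at 0.119 FPKM. These genes were chosen after their values were seen, and exons of Ctsd, Lamp1, Ftl1, H2-DMa, Cd74 and Ciita overlap other genes.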
